A study of Rattus norvegicus with 24 samples.

Results

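The mitochondrial chromosome of the rat carries 37 genes, and all of them are listed in the count files of every library described here. Membership was set by position alone, as every row on the chromosome named MT. The set was chosen with earlier results of these data known. Its members make up 37 of the 32883 genes in 22 of the 24 libraries and 37 of 30560 in the other 2. Length and position divide them into 2 rRNA genes, 22 tRNA genes of 60 to 75 bases and 13 protein-coding genes (mRNA genes) of 204 to 1830 bases. The study's tables pair 7 of the 37 identifiers with a symbol. The other 30 were named here from their order, strand and length, which follow the gene order shared by mammalian mitochondrial genomes.

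RNA was sequenced from primary Sprague Dawley rat cells in 6 conditions with 4 libraries each, and the methods treat cultures from independent litters as biological replicates. Libraries with the same replicate number are called a litter below. The methods do not state that a number marks the same litter in every condition, so this pairing is assumed. Oligodendrocyte precursor cells (OPCs) came from the cerebral cortex of pups at postnatal day 0 to 4 and were collected after 24 hours in proliferation medium. Oligodendrocytes (OLs) had the same 24 hours followed by 72 hours in differentiation medium. At each stage the cells were left untreated, given the vehicle DMSO, or given 8 µM dolutegravir (DTG), an HIV integrase inhibitor, throughout. Each library is a whole culture rather than a sorted cell type.

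Mitochondrial DNA encodes 13 subunits of the respiratory chain and ATP synthase, together with the rRNAs and tRNAs with which the organelle translates them. Both strands are transcribed as long precursors, most genes lie on the heavy-strand transcript, and tRNAs between the genes mark the sites at which the precursors are cleaved. Most of the mRNAs then receive a short poly(A) tail, whereas mature tRNAs do not. The libraries were made from poly(A)-selected RNA, so the counts report polyadenylated or otherwise captured transcripts, and the tRNA counts in particular need not stand for mature tRNA.

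Between 13241279 and 18499994 counts fell on genes in a library, and the added ERCC RNA, a set of synthetic transcripts, took 1.06% to 7.19% of all counts. Levels are given as CPM, the counts of a gene divided by all gene counts of its library and multiplied by 1000000. Markers could be named only where the study's tables of significantly changed genes give a symbol. This held for 2 of 5 OPC markers and 2 of 7 OL markers. They were thus selected on differences in these same data, so their match with the labelled stages is no independent check. Pdgfra, a receptor of OPCs, averaged 691 CPM in DMSO-treated OPCs and 163 CPM in DMSO-treated OLs. Mbp, which encodes a myelin protein, averaged 246 and 7206 CPM. Snap25 and Nefl, markers of neurons, averaged 7.48 and 6.05 CPM in DMSO-treated OPCs and 0.646 and 1.46 CPM in DMSO-treated OLs. No identifier could be named for the astrocyte and microglia markers.

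The untreated libraries of replicate 3, 1 of OPCs and 1 of OLs, stood apart from the rest. Their files list another set of genes, with the last gene of chromosome 1 ending at position 260398790 instead of 282724300, although the 37 mitochondrial genes have the same positions in all files. Mt-nd4, which encodes a core subunit of complex I, had 2159 CPM in that OPC library and 802 CPM in that OL library, against 58.2 to 362 CPM in the other 22. Mt-nd4l, its neighbour on the same precursor, had 333 CPM in that OPC library and 101 CPM in that OL library, and the counts of Mt-nd4 per Mt-nd4l count were 6.48 and 7.95 in the 2 libraries and 0.772 to 1.08 in the others. The tRNA genes Mt-ty, Mt-tg, Mt-th, Mt-ts2 and Mt-tl2 also had their counts mainly in these 2 libraries. Mt-tl2, for example, had 120 and 21 counts in them and at most 1 in any other library, and Mt-ts2 had 22 and 8 counts and 0 in all 22 others, which allows a level of up to 0.00886 CPM for the 22 together. Levels of Mt-nd4 and of these tRNAs in the 22 libraries are therefore given as counted, and comparisons with untreated cells are also given without replicate 3 where they rest on it.

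Levels of different genes can be compared only per length. Among the 15 mRNA and rRNA genes, Mt-co1, which encodes the catalytic subunit of complex IV, had the highest mean level per kilobase in 5 of the 6 conditions, with 4457 ± 658 CPM per kb (SD, n = 4) in DMSO-treated OLs and 7193 ± 2396 in DMSO-treated OPCs. Mt-atp6, a subunit of the proton channel of ATP synthase, and Mt-cyb, the complex III subunit, followed in DMSO-treated OLs with 4001 ± 485 and 3681 ± 454 CPM per kb, and these neighbours lay within each other's SD. Mt-co3, Mt-nd1, Mt-co2 and Mt-atp8 came next, between 3021 and 1923 CPM per kb. Mt-nd3, Mt-nd2, Mt-nd6, Mt-nd5 and Mt-nd4l lay between 882 and 279 CPM per kb, and Mt-nd4 was lowest at 62.9 ± 13.9. This place of Mt-nd4 is as counted and may not be its level. In untreated replicate 3, whose files list another set of genes, Mt-nd4 had 6.48 and 7.95 counts per Mt-nd4l count. The other libraries had 0.772 to 1.08. In DTG-treated OLs the order changed at the top. Mt-nd1, a complex I subunit, moved from the fifth to the first place with 7964 ± 1257 CPM per kb, next to Mt-co1 with 7776 ± 2547, and the 2 did not differ beyond their spread.

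The 37 genes together took between 2.01% and 5.72% of the gene counts of a library. The share was 2.55%, 2.35%, 2.37% and 2.04% in DMSO-treated OLs and 3.96%, 4.12%, 4.71% and 5.70% in DTG-treated OLs, in the order of replicates 1 to 4. Each DTG-treated OL library lay above every DMSO-treated one. The means were 2.33% ± 0.210 and 4.62% ± 0.787 (SD, n = 4), a difference of 2.30 percentage points or 1.99-fold. In DMSO-treated OPCs the share was 2.56%, 3.94%, 4.52% and 2.01%, and in DTG-treated OPCs it was 3.12%, 5.72%, 4.83% and 3.53%. The share was higher with DTG in all 4 litters, but litters differed more than treatments and the groups overlapped, with means of 3.26% ± 1.17 and 4.30% ± 1.19. Untreated OPCs had 3.31% ± 1.30 and untreated OLs 2.49% ± 0.289. Because these are shares of whole cultures, fewer cells of a type and less RNA per cell cannot be told apart.

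**Figure D1:**
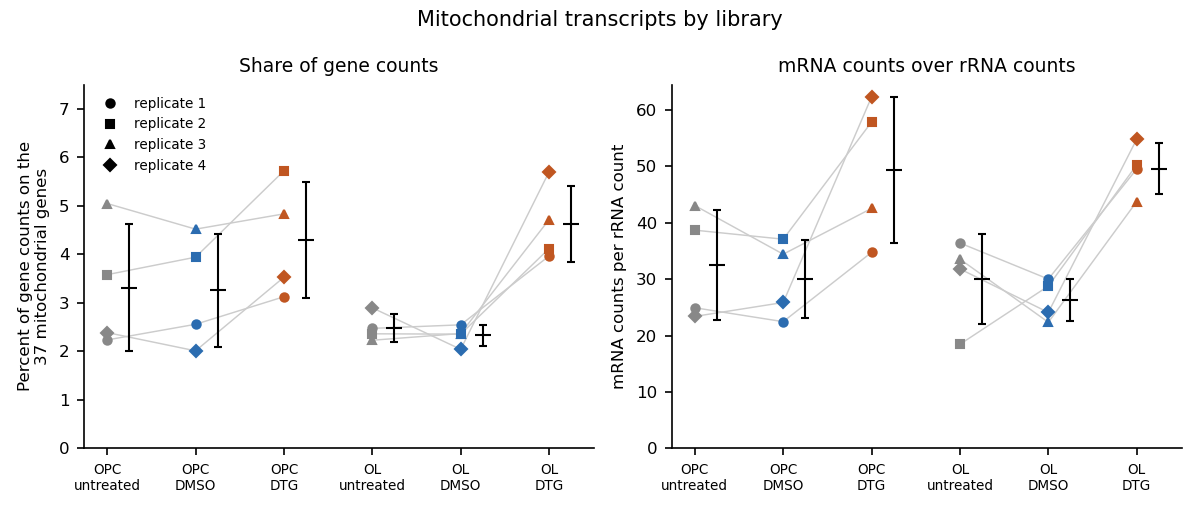
The percent of gene counts on the 37 mitochondrial genes (left) and the mitochondrial mRNA counts per rRNA count (right) in each library, by condition. Symbols mark replicates 1 to 4, grey lines join libraries with the same replicate number, and the bars beside the points show the mean ± SD (n = 4). The 4 DTG-treated OL libraries lie above the 4 DMSO-treated ones in both panels, while the OPC groups overlap.

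The comparison of DTG-treated with DMSO-treated OLs asks which transcripts differ after exposure through 24 hours of proliferation and 72 hours of differentiation. It cannot separate the 2 periods of exposure. All 13 mitochondrial mRNA genes had a positive log2 fold change, with a median of 1.00 and a range of 0.45 to 1.68, while the median over all 12710 genes tested was 0.01. A gene was called where edgeR's quasi-likelihood test gave an adjusted p-value (Benjamini-Hochberg) under 0.05 and the log2 fold change exceeded 1 in size, and 6 of the 13 were called, all of them higher. Over all genes tested 0.582% were called by this rule and 0.37% were called higher. With the adjusted p-value alone, 9 of the 13 passed, against 0.543% of all genes passing as higher. In 12 of the 13 every DTG-treated library lay above every DMSO-treated one, which held for 4.04% of all genes, and each of the 13 was higher in all 4 litters.

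Complex I, which oxidises NADH and passes its electrons to ubiquinone, has 7 of its subunits encoded here. Mt-nd1, at MT:2740-3694 on the plus strand, had 2566, 2491, 2269 and 2021 CPM in DMSO-treated OLs and 6549, 6668, 8188 and 9016 CPM in DTG-treated OLs. It was the member with the largest increase, with a log2 fold change of 1.68 (SE 0.19, adjusted p = 0.00131). Mt-nd4l had 86.4, 87.4, 96.2 and 60.9 CPM with DMSO and 151, 179, 230 and 212 CPM with DTG, a log2 fold change of 1.20 (SE 0.18, adjusted p = 0.00591). Mt-nd2 followed with 567, 673, 775 and 467 CPM against 1070, 1170, 1636 and 1241 CPM, a log2 fold change of 1.02 (SE 0.20, adjusted p = 0.0316). In each of these genes the lowest DTG-treated library was above the highest DMSO-treated library.

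Mt-nd3, which encodes a small subunit of the membrane arm, was at the edge of the call rule. It had 381, 264, 329 and 254 CPM with DMSO and 661, 505, 592 and 745 CPM with DTG, a log2 fold change of 1.00 (SE 0.15, adjusted p = 0.00623). Mt-nd4 rose by 0.93 on the log2 scale (adjusted p = 0.0305), below the minimum fold change. Mt-nd5 and Mt-nd6, whose genes overlap by 23 bases on opposite strands, had log2 fold changes of 1.02 and 0.83 and adjusted p-values of 0.0556 and 0.0552. Mt-nd6 is the one mRNA gene on the light strand, and its value lay inside the range of the heavy-strand genes. The strand setting of the counting is not given in the sources used here. If strand was ignored, its counts may include reads of the heavy-strand transcript over it. The sum of the 7 complex I genes went from 0.418% ± 0.0404 of gene counts with DMSO to 1.14% ± 0.201 with DTG, or 2.72-fold.

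Mt-cyb, the only subunit of complex III made in the mitochondrion, had 4888, 4325, 3890 and 3729 CPM in DMSO-treated OLs and 7455, 7093, 8326 and 9055 CPM in DTG-treated OLs. The groups did not overlap, and the gene rose by 0.90 on the log2 scale (SE 0.18, adjusted p = 0.0348). The summed counts of ATP synthase, the enzyme that makes ATP from the proton gradient, came from Mt-atp8 and Mt-atp6, which overlap by 43 bases, so that reads over the overlap cannot be assigned with certainty to either. Mt-atp8 had 403, 427, 451 and 288 CPM with DMSO and 742, 835, 923 and 852 CPM with DTG, a log2 fold change of 1.07 (SE 0.17, adjusted p = 0.0087). Mt-atp6 had 2689, 2823, 3090 and 2297 CPM against 4453, 5104, 5686 and 5543 CPM, a log2 fold change of 0.91 (SE 0.18, adjusted p = 0.0348). Together they took 0.312% ± 0.0400 and 0.603% ± 0.0625 of gene counts, or 1.94-fold.

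Complex IV, which reduces oxygen to water, has 3 subunits encoded here, and they differed among themselves. Mt-co3 was called, with 2109, 2479, 2779 and 2109 CPM with DMSO, 4095, 6305, 6275 and 6067 CPM with DTG and a log2 fold change of 1.24 (SE 0.21, adjusted p = 0.015). Mt-co1 was not called, with 8323, 6832, 5998 and 6391 CPM against 10660, 9282, 10260 and 17852 CPM. Its groups did not overlap, but DTG-treated replicate 4 stood far above the other 3, and the log2 fold change was 0.77 (SE 0.23, adjusted p = 0.142). Mt-co2, the subunit that takes electrons from cytochrome c, had 1734, 1463, 1978 and 1049 CPM against 1793, 1870, 2219 and 2760 CPM. It was the single mRNA gene whose groups overlapped, with a log2 fold change of 0.45 (SE 0.20, adjusted p = 0.378). The sum of complex IV was 1.08% ± 0.107 of gene counts with DMSO and 1.99% ± 0.464 with DTG, or 1.84-fold.

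**Figure D2:**
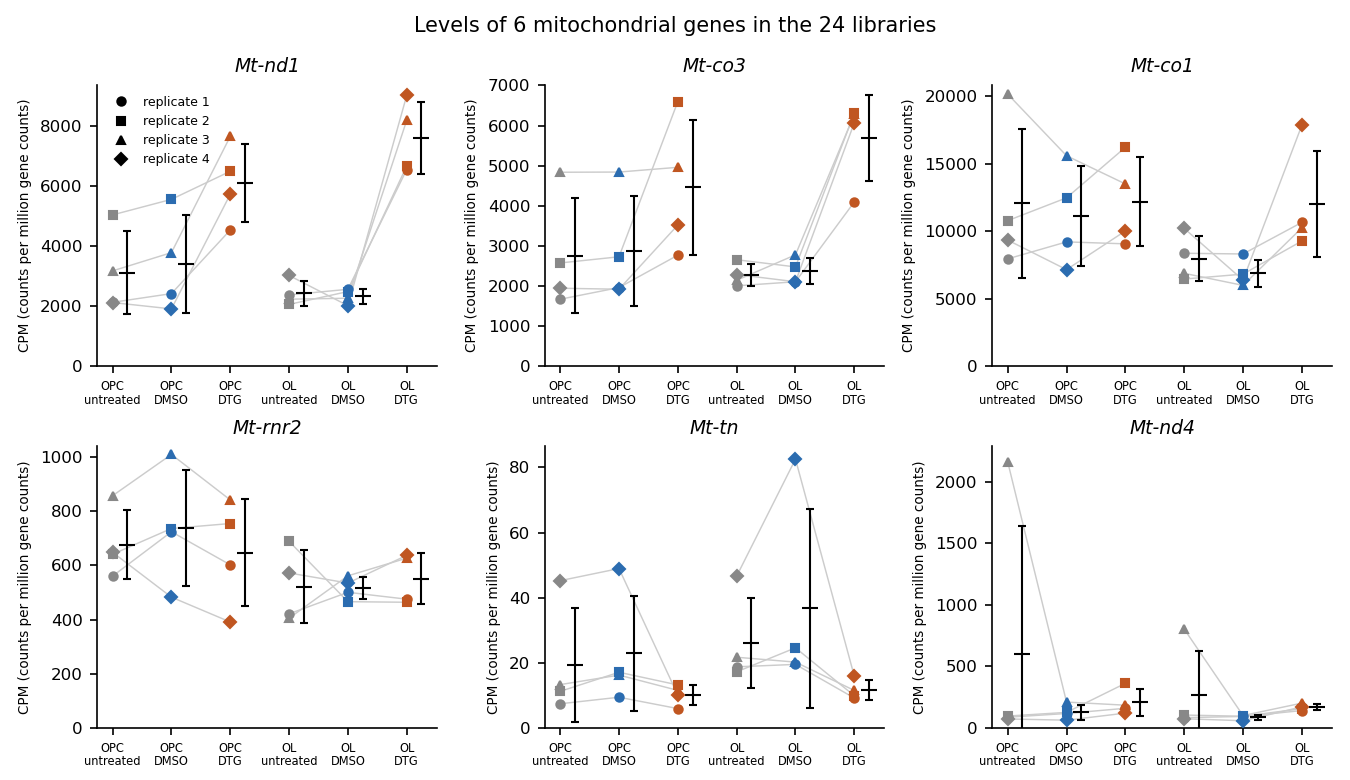
CPM of 6 mitochondrial genes in the 24 libraries, by condition, on linear axes that start at 0. Symbols mark replicates 1 to 4, grey lines join the same replicate number, and bars show the mean ± SD (n = 4). Mt-nd1 and Mt-co3 separate DTG-treated from DMSO-treated OLs, Mt-rnr2 does not, Mt-tn is highest in the untreated and DMSO-treated libraries of replicate 4, and Mt-nd4 is highest in the untreated libraries of replicate 3.

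These counts of calls depended on single libraries and on the model of the spread. DESeq2, the method of the study, called 7 of the 13 mRNA genes among 128 of 13024 genes. Without DMSO-treated replicate 4, 2 of the 13 mRNA genes were called among 58 of all 12842 genes tested, with all 24 libraries in 1 fit 2 among 39 of 12851, and without DMSO-treated replicate 2 it was 3 among 28 of 12819. Mt-nd1 and Mt-nd4l were called whichever of the 8 libraries was left out. Mt-nd2 lost its call in 6 of these 8 fits, Mt-nd3 in 4, Mt-co3 in 2 and Mt-atp8 in 1. With the litter as a replicate block, 6 mRNA genes were called where 1.36% of all genes were, and 12 of 13 passed the adjusted p-value alone, while 2.86% of all genes did so as higher. Mt-nd5, Mt-nd6 and Mt-co1 passed under the block, with adjusted p-values of 0.000298, 0.000675 and 0.0116, and Mt-co2 did not (adjusted p = 0.121).

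The 2 rRNA genes did not follow the mRNA genes in OLs. Mt-rnr1 encodes the 12S rRNA and Mt-rnr2 the 16S rRNA of the mitochondrial ribosome, and both lie upstream of Mt-nd1 on the heavy strand. Mt-rnr2 had 500, 466, 561 and 535 CPM with DMSO and 475, 464, 626 and 637 CPM with DTG, a log2 fold change of 0.07 (SE 0.15, adjusted p = 0.889). Mt-rnr1 had 318, 322, 449 and 272 CPM against 308, 339, 426 and 383 CPM, a log2 fold change of 0.07 (SE 0.18, adjusted p = 0.897). For both genes the groups overlapped and the difference was smaller than its standard error.

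The mitochondrial mRNA counts per rRNA count give the same contrast within each library, free of the scaling of the library. The ratio was 30.0, 28.8, 22.3 and 24.1 in DMSO-treated OLs and 49.5, 50.2, 43.7 and 54.8 in DTG-treated OLs. Every DTG-treated OL library lay above every DMSO-treated one, and the means were 26.3 ± 3.67 and 49.6 ± 4.54 (SD, n = 4), or 1.88-fold. In OPCs the ratio was 22.5, 37.1, 34.4 and 25.9 with DMSO and 34.7, 57.8, 42.5 and 62.3 with DTG. It was higher in all 4 litters with means of 29.9 ± 6.92 and 49.4 ± 12.9, although the groups overlapped by the lowest DTG-treated library. Untreated cells had 32.5 ± 9.83 in OPCs and 30.0 ± 7.96 in OLs. The rRNA counts are those that passed poly(A) selection, so the ratio is not one of total RNA.

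The tRNA counts were small, with 0.00518% to 0.0166% of gene counts in a library. Only 10 of the 22 tRNA genes had enough counts to be tested in any comparison. Of these 10, 7 lie on the light strand, which carries 8 of the 22. Light-strand tRNA genes took 96.2% ± 1.62 of the tRNA counts in DMSO-treated OLs and 90.7% ± 4.71 in DMSO-treated OPCs. Mt-tp, the proline tRNA gene and the last of the 37 along the chromosome, had the most counts of the tRNA genes. Where counting ignored strand, reads on a light-strand tRNA cannot be told apart from reads of the heavy-strand transcript over it, and the strand setting is not given in the sources used here.

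Mt-tn and Mt-tc, the asparagine and cysteine tRNA genes, had the lowest log2 fold changes of the chromosome with DTG. They are neighbours on the light strand, at MT:5081-5152 and MT:5185-5252, separated by 32 bases in which the light-strand replication origin of mammals lies. Mt-tn had 19.5, 24.6, 20.2 and 82.5 CPM in DMSO-treated OLs and 9.18, 9.88, 11.5 and 15.9 CPM in DTG-treated OLs. The 4 DTG-treated OL libraries lay below the 4 DMSO-treated ones, which held for 4.89% of all genes, and DMSO-treated replicate 4 stood far above the rest. The log2 fold change was -1.71 (SE 0.43, adjusted p = 0.0948). Under the replicate block it was -1.52 with an adjusted p of 2.96e-05, and without DMSO-treated replicate 4 it was -0.89 with an adjusted p of 0.0906.

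Mt-tc likewise was lower in every DTG-treated OL library and highest in DMSO-treated replicate 4, with 4.15, 4.80, 4.93 and 14.5 CPM against 1.14, 2.31, 2.56 and 3.81 CPM. Its log2 fold change was -1.56 (SE 0.45, adjusted p = 0.136). The blocked value was -1.57 with an adjusted p of 0.000317, and without DMSO-treated replicate 4 the value was -0.90 with an adjusted p of 0.270. Mt-tn and Mt-tc together made 40.9% ± 12.2 of the tRNA counts in DMSO-treated OLs and 17.7% ± 1.87 in DTG-treated OLs. The other 6 tRNA genes tested in OLs had adjusted p-values above 0.1, and 4 of them (Mt-tl1, Mt-ts1, Mt-te and Mt-tp) had a positive log2 fold change and 2 (Mt-tm and Mt-ta) a negative one. Mt-tq, the glutamine tRNA gene, had enough counts in 3 comparisons that include OPCs and was called in none of them. The counts behind these values were as low as 96 for Mt-tn and 15 for Mt-tc in a library, so counting error adds to the spread.

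**Figure D3:**
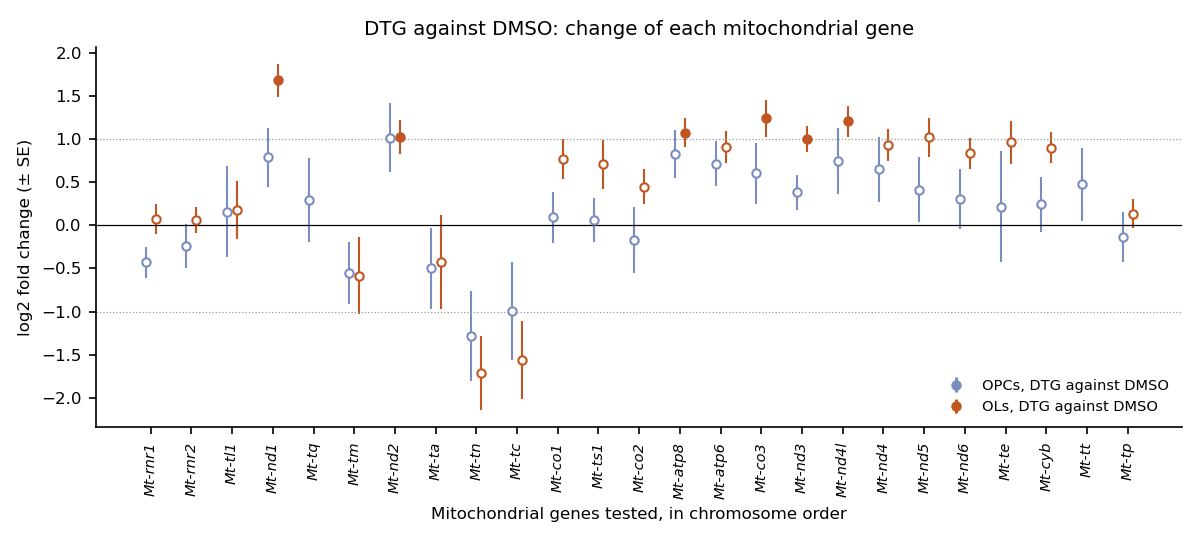
The log2 fold change (± SE) of DTG against DMSO for each mitochondrial gene tested, in chromosome order, in OPCs and OLs. Filled points were called (adjusted p-value under 0.05 and a log2 fold change beyond the dotted lines, which lie at 1 and -1). The 6 filled points are mRNA genes in OLs, the rRNA genes lie near or below 0 at both stages, and Mt-tn and Mt-tc are lowest at both stages.

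In OPCs, where exposure lasted for 24 hours of proliferation only, no mitochondrial gene passed the test, and neither did any of the 13270 genes tested (0% called). At an unadjusted p under 0.05, 69 genes passed, or 0.52%, and DESeq2 called 0 as well. Over all genes tested the median log2 fold change was -0.003. Of the 13 mRNA genes, 12 had a positive value, with a median of 0.60 and a range of -0.17 to 1.01. Of the 13, 4 had an unadjusted p under 0.05, against 0.249% of all genes with such a p and a higher level. Each of the 13 overlapped between the groups (0.256% of all genes were higher with DTG without overlap), and 8 of the 13 were higher in all 4 litters.

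By complex, the sum of the 7 complex I genes went from 0.667% ± 0.283 of gene counts with DMSO to 1.14% ± 0.314 with DTG (SD, n = 4), or 1.71-fold, and that of the ATP synthase genes from 0.303% ± 0.0767 to 0.520% ± 0.161, or 1.71-fold. Complex III and complex IV differed less, by 1.22-fold and 1.15-fold, and all 4 sums overlapped between the groups. Mt-nd2 had 994, 1331, 1942 and 569 CPM with DMSO and 1745, 4132, 2733 and 1389 CPM with DTG, a log2 fold change of 1.01 (SE 0.40, adjusted p = 0.907). Mt-nd1 had 2422, 5558, 3786 and 1914 CPM against 4538, 6492, 7654 and 5726 CPM, a log2 fold change of 0.79 (SE 0.34, adjusted p = 0.907). Both genes were higher with DTG in every litter, and the spread between litters was wide. Mt-atp8, Mt-nd4l and Mt-atp6 followed with 0.83, 0.75 and 0.72. Mt-co1 and Mt-co2, at 0.09 and -0.17, were the lowest mRNA genes, as they also were in OLs. The rRNA genes Mt-rnr1 and Mt-rnr2 had -0.43 and -0.24, and neither passed. Mt-tn had 9.42, 17.1, 16.2 and 48.9 CPM with DMSO and 5.94, 13.2, 11.5 and 10.1 CPM with DTG, lower in each litter but overlapping. Its log2 fold change was -1.28 (adjusted p = 0.907), and -0.49 without DMSO-treated replicate 4.

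Whether the response differed between the stages was tested with the interaction term of a fit to 16 libraries. Exposure was longer in OLs than in OPCs, so stage and length of exposure cannot be told apart in this term. No gene of 13734 passed (0% called), 368 genes or 2.68% had an unadjusted p under 0.05, and DESeq2 called 4 genes, none of them a mitochondrial mRNA gene. Of the 13 mRNA genes, 2 had an unadjusted p under 0.05. Over all genes tested the median difference was 0.04. In all 13 mRNA genes the difference was positive, with a median of 0.63 and a range of 0.04 to 0.92 on the log2 scale. Leaving out 1 of the 16 libraries gave medians of 0.31, without DMSO-treated OPC replicate 3, to 0.79, and in 8 of these 16 fits 12 of the 13 were positive. For Mt-nd1 the difference was 0.92 with an approximate 95% interval of 0.14 to 1.70, for Mt-nd3 0.65 with 0.15 to 1.15, and for Mt-nd2 0.04 with -0.88 to 0.95. Such intervals rest on a normal approximation, which understates their width, and are not adjusted for the number of genes. The intervals are wide, and a larger response in OLs than in OPCs was not detectable for the mitochondrial genes after adjustment.

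DTG also went with a different make-up of the mitochondrial mRNA counts. Mt-nd1 made 10.4%, 11.0%, 10.0% and 10.4% of them in DMSO-treated OLs and 16.9%, 16.5%, 17.8% and 16.1% in DTG-treated OLs, and it was the single gene whose share was higher in every DTG-treated OL library than in every DMSO-treated one. In OPCs its share was 9.92%, 14.5%, 8.64% and 9.95% with DMSO and 15.0%, 11.6%, 16.2% and 16.5% with DTG. Replicate 2 of the OPCs went the other way from the other 3 litters. Mt-co2 was the single gene whose share was lower without overlap in both stages, with means of 6.92% ± 1.41 and 4.76% ± 0.153 in OLs and 6.78% ± 1.21 and 4.76% ± 0.627 in OPCs. Mt-co1 had 35.8% ± 2.32 with DMSO and 29.1% ± 0.559 with DTG in OPCs, without overlap, and 30.9% ± 3.28 against 26.2% ± 4.47 in OLs, where the groups overlapped but each litter was lower. Mt-atp8 was the one gene whose share was higher without overlap in OPCs, with 1.34% ± 0.162 against 1.77% ± 0.183. These shares add to 100 within a library, so a higher share of 1 gene lowers the others.

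**Figure D4:**
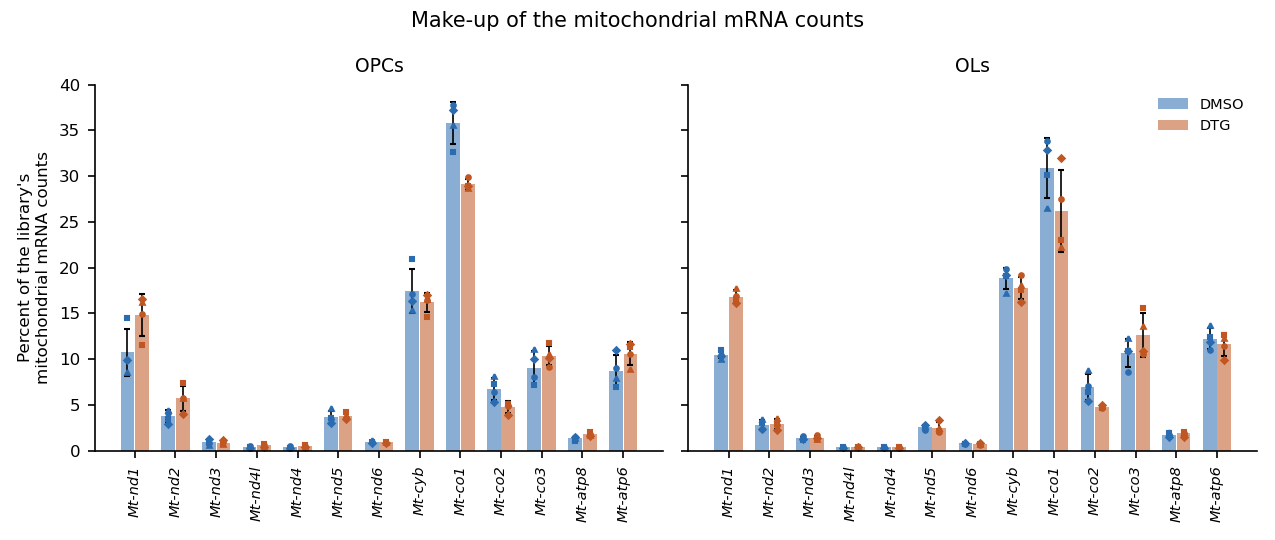
The percent of each library's mitochondrial mRNA counts that fell on each of the 13 mRNA genes, in OPCs (left) and OLs (right), for DMSO and DTG. Bars show means, error bars the SD (n = 4) and symbols the libraries. Mt-nd1 has a higher share and Mt-co2 a lower share in every DTG-treated OL library, and Mt-co1 and Mt-co2 have lower shares in every DTG-treated OPC library.

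The vehicle was compared with no treatment as a check of the control. No gene was called between DMSO-treated and untreated OLs (0% of 11893; 7.49% at an unadjusted p under 0.05) or OPCs (0% of 12182; 0.599% unadjusted), and DESeq2 called 0 in both. The median log2 fold change of the mRNA genes was -0.04 in OLs and 0.05 in OPCs, and none had an unadjusted p under 0.05. The lowest value of each comparison was that of Mt-nd4, at -1.64 in OLs and -2.22 in OPCs. Without the untreated library of replicate 3 the lowest value of an mRNA gene was -0.25 in OLs and -0.09 in OPCs, with medians of 0.03 and 0.33. The share of gene counts on the chromosome differed by -0.163 percentage points in OLs and -0.0553 in OPCs, less than the SD of either group. Leaving out 1 library moved it between -0.250 and -0.0271 in OLs and between -0.476 and 0.523 in OPCs, and without the untreated library of replicate 3 it was -0.250 and 0.523.

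Against untreated OLs, which share the DTG-treated libraries with the comparison above, 5 of the 13 mRNA genes were called with DTG, where 0.277% of the 11909 genes tested were called. They were Mt-nd1 with 1.72 on the log2 scale (SE 0.175, adjusted p = 0.00841), Mt-co3 with 1.40 (SE 0.20, adjusted p = 0.0275), Mt-atp8 with 1.25 (SE 0.17, adjusted p = 0.0252), Mt-atp6 with 1.11 (SE 0.17, adjusted p = 0.0317) and Mt-nd3 with 1.01 (SE 0.14, adjusted p = 0.0258). In 8 of the 13 the groups did not overlap, which held for 2.99% of all genes as higher with DTG. Without untreated replicate 1 or 2, or without DTG-treated replicate 2, 3 or 4, only Mt-nd1 was called, among 6 to 18 of all genes, and without untreated replicate 4 or DTG-treated replicate 1 there were 2 calls, among 15 and 5. Without untreated replicate 3 the count was again 5, among 39, with Mt-nd4l called and Mt-atp6 not. Under the replicate block, Mt-nd2 (adjusted p = 0.0354) and Mt-nd4l (adjusted p = 0.0264) were called as well, which made 7, and 0.898% of all genes were called. Mt-tn had 18.8, 17.2, 21.7 and 46.6 CPM in untreated OLs, all above the 4 DTG-treated libraries, with a log2 fold change of -1.09 (SE 0.31, adjusted p = 0.237, and 0.0376 under the block).

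The stages were compared at each treatment, as OLs against OPCs. With DTG, the OLs had the drug for 72 hours beyond the 24 hours of the OPCs. Stage and length of exposure cannot be told apart in that comparison. The share of gene counts on the chromosome differed by -0.930 percentage points with DMSO, -0.822 untreated and 0.323 with DTG, and the groups overlapped each time. Leaving out 1 library moved the difference between -1.35 and -0.509 with DMSO, between -1.18 and -0.244 untreated and between -0.0698 and 0.796 with DTG. The values nearest 0 came without OPC replicate 3 with DMSO and untreated, and the difference with DTG changed sign without DTG-treated OPC replicate 1 or OL replicate 4. With DMSO, 32.6% of the 13023 genes tested were called, and 0 of the 13 mRNA genes were. The mRNA genes had a median log2 fold change of -0.19 and a range of -0.71 to 0.58, while the median over all genes tested was -0.12. Mt-nd3 (0.58, SE 0.20, adjusted p = 0.0245) and Mt-rnr1 (0.57, SE 0.20, adjusted p = 0.0309) passed without the minimum fold change, where 53.3% of all genes did. Mt-tm, the methionine tRNA gene, had 4.07, 2.48, 4.21 and 1.40 CPM in OPCs and 0.461, 0.676, 0.743 and 0.673 CPM in OLs, without overlap, and was called lower (-1.87, SE 0.40, adjusted p = 0.00206). Mt-te, the glutamate tRNA gene, was also called lower (-1.55, SE 0.53, adjusted p = 0.0268), although the groups overlapped and the call was lost in 6 of the 8 fits that left out 1 library. Mt-tn (0.99, adjusted p = 0.155) and Mt-tc (0.96, adjusted p = 0.169) were higher in OLs in all 4 litters and were called under the replicate block, with adjusted p-values of 0.00049 and 0.00602, and without OPC replicate 4.

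With DTG, 39.3% of the 13171 genes were called between the stages, and 1 of the 13 mRNA genes was. Mt-nd3 had 279, 380, 354 and 394 CPM in OPCs and 661, 505, 592 and 745 CPM in OLs, without overlap, and a log2 fold change of 1.20 (SE 0.17, adjusted p = 0.00017). Mt-rnr1 had 271, 216, 267 and 165 CPM against 308, 339, 426 and 383 CPM and was called as well (1.06, SE 0.18, adjusted p = 0.000544), whereas Mt-rnr2 was not. The call of Mt-rnr1 was lost without OPC replicate 4 or OL replicate 3. The counts of Mt-rnr2 per Mt-rnr1 count were 2.22, 3.49, 3.15 and 2.37 in DTG-treated OPCs and 1.54, 1.37, 1.47 and 1.66 in DTG-treated OLs, without overlap. With DMSO the ratio averaged 2.54 ± 0.904 in OPCs and 1.56 ± 0.301 in OLs, and the groups overlapped.

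Mt-nd1 (0.70, SE 0.26, adjusted p = 0.0335) and Mt-ts1, a serine tRNA gene (0.73, SE 0.29, adjusted p = 0.0433), passed without the minimum fold change between the DTG-treated stages, where 62.7% of all genes did. Mt-tm was again called lower in OLs (-1.91, SE 0.43, adjusted p = 0.0027), as was Mt-tt, the threonine tRNA gene (-1.15, SE 0.43, adjusted p = 0.0348), a call that was lost in 5 of the 8 fits that left out 1 library and under DESeq2. In untreated cells 24.9% of the 12158 genes tested were called, 0 of the mRNA genes and, of the tRNA genes, Mt-tm (-1.70, SE 0.42, adjusted p = 0.0114). Without replicate 3 of both stages, no mRNA gene was called there either, and Mt-tm was still called, at -1.41. Mt-tm was low in OLs, at 0.144 to 0.703 CPM with DTG and 6 counts in untreated replicate 3. Counting error therefore adds to its spread.

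**Figure D5:**
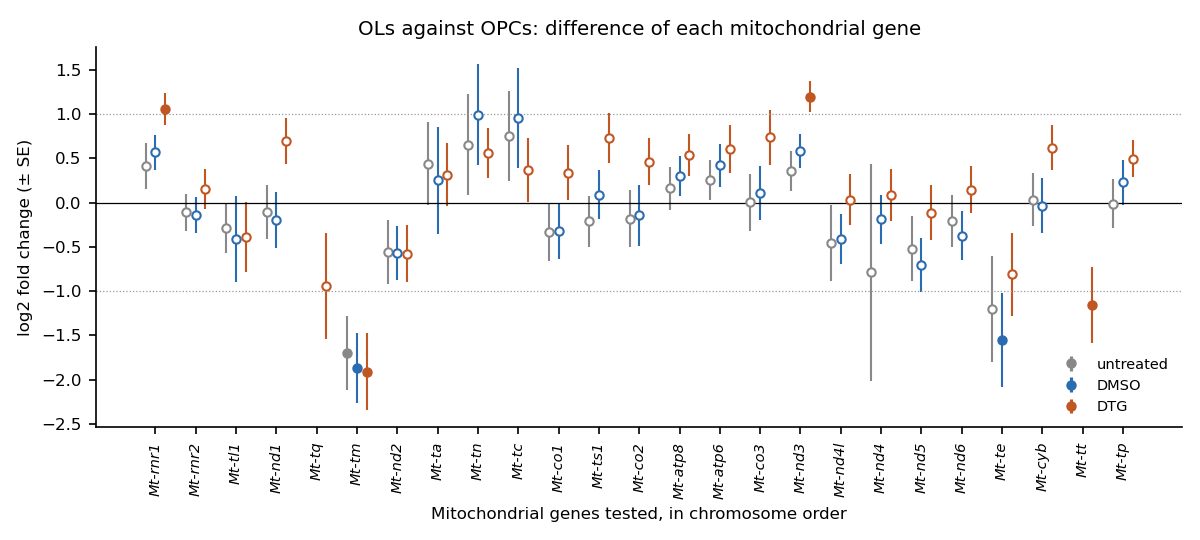
The log2 fold change (± SE) of OLs against OPCs for each mitochondrial gene tested, in chromosome order, without treatment, with DMSO and with DTG. With DTG, the OLs were also exposed for longer than the OPCs. Filled points were called (adjusted p-value under 0.05 and a log2 fold change beyond the dotted lines, which lie at 1 and -1). Mt-tm is filled in all 3 comparisons, Mt-nd3 and Mt-rnr1 are filled with DTG, and the wide bar of untreated Mt-nd4 goes with the 2 untreated libraries of replicate 3.

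The direction of the stage differences depended on the scaling. Scaled to ERCC counts in place of TMM, the median over all genes moved to -1.52 with DMSO, -1.36 with DTG and -1.002 untreated, and the mRNA genes then had medians of -1.77, -0.81 and -1.17. Mt-nd3 was -0.75 with DMSO and -0.01 with DTG on that scale, Mt-rnr1 was -0.88 and -0.25, and Mt-nd1 was -0.59 with DTG, so these directions hold only relative to the other genes. For DTG against DMSO the ERCC scaling moved the median over all genes to 0.59 in OLs and 0.38 in OPCs, with mRNA medians of 1.51 and 0.76, and 2 of the 13 were called in OLs.

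The stage markers, named only from the study's tables of changed genes, are given for DMSO-treated and DTG-treated OLs as values without a test. Mbp averaged 7206 CPM with DMSO (3585 to 9592) and 2734 CPM with DTG (1603 to 3680), and the groups overlapped. Mog, a myelin surface protein, averaged 39.2 CPM (28.6 to 44.1) and 19.8 CPM (17.5 to 24.2), without overlap. The OPC markers overlapped between the groups, with means of 163 and 139 CPM for Pdgfra and 40.3 and 48.4 CPM for Cspg4. The part of the stage markers in the mitochondrial values was not tested. In the OPCs, where the mRNA genes did not pass the test, Mbp averaged 246 CPM with DMSO and 201 CPM with DTG.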

How the data were processed

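RNA was extracted from whole cultures, spiked with ERCC RNA, poly(A)-selected and sequenced in 24 libraries. The authors aligned reads with STAR 2.5.2b and counted unique alignments to exons with featureCounts (Subread 1.5.2), and the deposited values are raw counts per gene (no normalization). The submitters' notes name bcl2fastq 2.20 and the build Rnor_6.0. No other build is named, although the untreated libraries of replicate 3 have another end of the last gene on chromosome 1 (260398790 against 282724300). How reads over more than 1 gene were assigned is not given in the sources used here.

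Genes on the chromosome MT were taken as members. The members and lists were chosen with earlier results of these data known. Genes were named in the text by this rule: all mRNA and rRNA genes and each tRNA gene with enough counts to be tested. The 5 tRNA genes named without a test were chosen after their values were seen. In R 4.3.3, edgeR 4.0.16 (limma 3.58.1) removed low counts with filterByExpr, scaled with TMM and applied the quasi-likelihood F test to the libraries of the groups compared, with Benjamini-Hochberg adjustment over all genes tested. Comparisons with untreated cells used the 21651 identifiers in both kinds of file. Summed shares and ratios are given as values without p-values, although an exact permutation test of the share had been planned. The scripts were tested on simulated data. Positions are those of the deposited files. No nucleotide or protein sequence of the chromosome was used here.

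Replicate numbers were assumed to mark the same litter across conditions, which the methods do not state, and library names show that replicates 2 and 3 share a date. Deviations from the group means correlated between the DMSO-treated and DTG-treated library of a litter with r = 0.43, 0.40, 0.40 and 0.00 in OLs and 0.73, -0.08, 0.59 and 0.82 in OPCs, across genes. No 2 libraries had identical counts.

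Alternatives were DESeq2 1.42.0, its size factors, TMM without mitochondrial genes, ERCC scaling, other filters, no minimum fold change, a replicate block, all 24 libraries in 1 fit, the legacy quasi-likelihood fit and leaving out each library. Nuclear genes of respiration, mitochondrial ribosomes and biogenesis were not analysed here, since at most 25% of any such list could be named. Counts of an mRNA gene ranged from 894 to 314220 in a library and those of an rRNA gene from 2732 to 17481, whereas a tested tRNA gene had a median of 36.5, which limits its precision. ERCC columns were used only for scaling.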

Additional observations from a re-analysis of the deposited data

Results flagged for a closer look

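In 18 of 186 groups of 4 libraries, 1 library lay far from the other 3 by Dixon's criterion, where chance gives about 1 in 20, or 9.3. Replicate 4 accounted for 9 of them, 8 of which concern tRNA genes. In DMSO-treated OLs, replicate 4 had 82.5 CPM of Mt-tn against 19.5 to 24.6 in the other 3, 14.5 CPM of Mt-tc against 4.15 to 4.93, 2.75 CPM of Mt-ta against 0.461 to 0.743 and 9.61 CPM of Mt-ts1 against 5.95 to 6.26, and 0.0166% of its gene counts fell on tRNA genes against 0.00737% to 0.00749%. Mt-tn stood out in replicate 4 of the untreated cells too, with 45.2 CPM in OPCs against 7.41 to 13.3 and 46.6 CPM in OLs against 17.2 to 21.7, and untreated OL replicate 4 had 0.0127% of counts on tRNA genes against 0.00625% to 0.00692%. These are light-strand tRNA genes in libraries with a common replicate number, and the cause was not tested.

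Among the mRNA genes, Mt-co1 had 17852 CPM in DTG-treated OL replicate 4 against 9282 to 10660 in the other 3, and Mt-co3 had 4095 CPM in DTG-treated OL replicate 1 against 6067 to 6305. Mt-nd5 had 613 CPM in DMSO-treated OL replicate 3 against 542 to 551, and Mt-nd3 had 255 CPM in untreated OL replicate 2 against 342 to 354. In untreated replicate 3, whose files list other genes, Mt-nd4 had 2159 CPM in OPCs against 72.7 to 96.4 and 802 CPM in OLs against 74.4 to 104, and Mt-nd4l had 333 CPM in OPCs against 71.5 to 103. Mt-tp had 26.2 CPM in untreated OPC replicate 1 against 48.8 to 52.5 and 27.3 CPM in DTG-treated OPC replicate 1 against 44.9 to 46.4. The rRNA genes took 0.101% of gene counts in DMSO-treated OL replicate 3 against 0.0788% to 0.0819%.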

How the results depend on the processing

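Of the results for single genes and measures, 950 values under an alternative kept direction and side of the threshold, 68 lost the call, 28 gained it and 16 changed sign. Of the counts of called mRNA genes and the shares of gene counts, 242 values were within the limits set for them and 17 were not. Scaled to ERCC counts, 2 mRNA genes were called with DTG against DMSO in OLs, 1 with DTG against untreated OLs, and 12, 5 and 3 between OLs and OPCs with DMSO, with DTG and untreated, all of the last lower in OLs. Of all genes, the same scaling called 19 of 12710 and 23 of 11909 in the OLs and 6979 of 13023, 8530 of 13171 and 4149 of 12158 between the stages, of which 6701, 8039 and 3766 were lower in OLs. With all 24 libraries in 1 fit, 2 were called with DTG against DMSO in OLs. With no minimum fold change, 1 was called between the stages with DMSO and 2 with DTG. Leaving out 1 library gave 2 to 7 calls with DTG against DMSO in OLs and 1 to 5 with DTG against untreated OLs. The other counts of calls were not moved by leaving out a library.

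Signs changed with ERCC scaling for Mt-rnr2 (0.025) and Mt-co2 (0.010) with DTG in OPCs, for Mt-rnr1 (-0.88), Mt-nd3 (-0.75), Mt-tn (-0.17) and Mt-tc (-0.35) between the stages with DMSO, and for Mt-rnr1 (-0.25), Mt-nd1 (-0.59), Mt-ts1 (-0.45) and Mt-nd3 (-0.011) with DTG. Leaving out 1 library gave -0.038 to 0.25 for Mt-rnr1 and -0.029 to 0.14 for Mt-rnr2 with DTG in OLs, and -0.071 to 0.26 for Mt-co1 and -0.39 to 0.10 for Mt-co2 with DTG in OPCs. None of these 4 values passed the test. The cause of these changes was not tested.

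With the replicate block, 6 mRNA genes were called with DTG against DMSO in OLs, 7 with DTG against untreated OLs, 1 between the stages with DTG and 0 in the other comparisons. The block changed no call other than those of Mt-tn, Mt-tc, Mt-nd2 and Mt-nd4l given above, among the genes whose values are given. A difference in means of the shares is the same with and without the pairing, 2.30 percentage points with DTG in OLs. The legacy quasi-likelihood fit, the mRNA to rRNA ratio and the shares of Mt-nd1 and Mt-co1 among mRNA counts were chosen after seeing the data, as was leaving out replicate 3 of both untreated groups. Depth limits the tRNA genes most, with a median of 36.5 counts a library for those tested, and 4 libraries a group limit the precision of every value.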
